A study of Mus musculus with 6 samples.

Results

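The major urinary protein (Mup) genes were described in 6 mouse liver RNA sequencing libraries. The files listed 21 Mup symbols, and 10 of them, Mup1, Mup2, Mup3, Mup7, Mup9, Mup10, Mup11, Mup17, Mup20 and Mup21, were chosen out of 18253 listed gene symbols. They were chosen on measured values, because their levels differed widely between single libraries of one group on the log2(FPKM + 1) scale. That spread is therefore given as a description, with no test. FPKM counts fragments relative to gene length in kilobases and to the library's fragment total, and a symbol not listed for a library was taken as 0.

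In 3 libraries the liver came from C57BL/6 mice that had received alpha-naphthylisothiocyanate (ANIT) and celastrol, and in 3 from C57BL/6 mice that had received ANIT alone. ANIT is a chemical toxic to bile duct cells that is used to bring about cholestasis, and celastrol is a plant triterpenoid. All 6 libraries carry the age label of postnatal day 21, and the protocol gives 5 days of treatment. No library from an untreated mouse was analysed here, so no value below is set against normal liver. Whether the 3 libraries of a group stem from different animals is not stated in the labels, so the tests see only the spread between these samples, which may be technical.

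Major urinary proteins are lipocalins, small secreted barrel-shaped proteins with a pocket that binds volatile odorants. Mouse hepatocytes make them in large amounts, the kidney passes them into the urine, and they carry and slowly release pheromones there. In adult mouse liver most Mup genes are more active in males than in females, and their activity depends on pulses of growth hormone acting through the transcription factor STAT5b, with further effects of androgens, glucocorticoids and thyroid hormone. Expression of the family is low in young animals and rises towards sexual maturity.

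The 21 listed Mup genes lay on mouse chromosome 4 between positions 59956804 and 62150863 of build mm10, a span of 2.19 Mb that held 0 other listed genes. All 10 chosen genes, and 20 of the 21, were annotated on the minus strand, from Mup7 at chr4:60066469-60070475 to Mup21 at chr4:62147932-62150863. Their coding sequences, which spanned 6 coding exons and were mostly 540 bases long in the GENCODE annotation, fell into separate sequence groups. Mup1, Mup2, Mup7, Mup9, Mup10, Mup11 and Mup17 were 98.3% to 99.6% identical to each other, and belonged to 16 Mup genes of which each was over 95% identical to all the others. Mup3, Mup20 and Mup21 stood apart, at 82.6% to 91.3% identity to those 7 genes. Mup3 and Mup21 were nearest to each other, at 94.7%, and Mup20 was nearest to Mup11, at 91.3%.

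The upstream sequences show how alike these genes are where their transcription starts. RefSeq entries (GRCm38.p6) were found for 8 of the 10 genes, all but Mup1 and Mup20. The 250 bases before the annotated start are given for Mup10, the most abundant of the chosen genes, for Mup17, one of the most variable, and for the divergent Mup3 and Mup21. They run from 5′ to 3′ on the minus strand, and capitals mark matches to ATCAAT, a core of the sites bound by the liver factor HNF6, and to the TATA box letters, TATATAA.
Mup10, chr4:60582156-60582405: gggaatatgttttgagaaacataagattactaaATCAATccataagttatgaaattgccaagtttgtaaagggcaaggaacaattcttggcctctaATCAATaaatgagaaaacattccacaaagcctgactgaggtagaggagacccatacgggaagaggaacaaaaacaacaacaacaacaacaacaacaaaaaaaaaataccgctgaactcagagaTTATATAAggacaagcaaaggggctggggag
Mup17, chr4:61595833-61596082: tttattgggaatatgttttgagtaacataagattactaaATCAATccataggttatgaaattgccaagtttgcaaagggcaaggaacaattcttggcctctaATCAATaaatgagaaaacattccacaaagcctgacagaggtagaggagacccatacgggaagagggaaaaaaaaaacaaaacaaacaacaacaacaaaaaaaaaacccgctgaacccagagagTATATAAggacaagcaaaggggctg
Mup3, chr4:62087318-62087567: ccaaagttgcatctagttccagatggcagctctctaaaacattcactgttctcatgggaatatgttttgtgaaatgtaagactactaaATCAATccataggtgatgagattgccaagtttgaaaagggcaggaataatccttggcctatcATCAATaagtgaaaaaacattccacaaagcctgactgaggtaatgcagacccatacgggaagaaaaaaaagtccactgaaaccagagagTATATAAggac
Mup21, chr4:62150842-62151091: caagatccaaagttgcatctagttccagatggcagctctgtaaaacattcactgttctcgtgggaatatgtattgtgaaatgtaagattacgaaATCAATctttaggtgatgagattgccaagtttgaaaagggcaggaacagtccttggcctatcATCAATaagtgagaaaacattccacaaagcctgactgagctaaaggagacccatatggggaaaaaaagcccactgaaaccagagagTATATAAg
Over the bases that could be aligned, the Mup10 and Mup17 windows were 94.3% identical and the Mup3 and Mup21 windows 92.3%. Mup10 and Mup17 shared 72.8% to 84.5% with Mup3 and Mup21. The aligned stretch differed in length, with 84.5% over 168 columns for Mup10 and Mup21, and 75.3% over 231 for Mup17 and Mup3. Windows from 250 bases before to 50 bases after the start were searched for 3 motifs on both strands. ATCAAT was found in 8 of the 8 windows of chosen genes, and in 7.54% of the 32851 promoter windows of the RefSeq table. TATATAA was found in 7 of the 8, all but Mup7, and in 3.24% of all windows. The STAT5 core TTCNNNGAA was in 0 of the 8, against 8.30% of all windows. The annotated starts of the genes do not line up with each other, so the forward TATA box began at -30 from the start of Mup10 and at -8 from that of Mup21. The ATCAAT matches began at -82 and -19 in Mup7, against -217 and -154 in Mup10. The part of Mup7 that corresponds to the Mup10 TATA box may thus lie outside the searched window, so Mup7 is not shown to lack it. Many of the 8 windows are close copies of each other, so their counts are not independent and show neither enrichment nor depletion. Matches are descriptions of the letters in these windows.

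Mup10 was the most abundant of the 10 genes in each of the 6 libraries. It reached 4780.4, 10536 and 4666 FPKM in ANIT plus celastrol replicates 1, 2 and 3, and 2346, 4638 and 5371 FPKM in ANIT replicates 1, 2 and 3. The groups overlapped, and the highest library, ANIT plus celastrol replicate 2, exceeded the lowest of its group 2.26-fold.

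Mup7 and Mup11 separated the libraries far more. Mup7 was at 1598, 5740 and 1329.7 FPKM in the ANIT plus celastrol libraries, and at 109, 1138 and 4108 FPKM in the ANIT libraries. Mup11 was at 488, 1625 and 353 FPKM with ANIT plus celastrol, and at 7.18, 203 and 805 FPKM with ANIT. ANIT replicate 1 was the low library of both genes, and within ANIT its level was below that of replicate 3 by a factor of 37.6 for Mup7 and 112 for Mup11.

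Mup17 and Mup1 had the same order of libraries within each group as Mup7 and Mup11, at lower levels. Mup17 was at 19.1, 160 and 17.5 FPKM with ANIT plus celastrol, and at 1.16, 24.0 and 56.4 FPKM with ANIT. Mup1, a circulating Mup that has been linked to glucose and lipid handling in mice, was at 93.7, 499 and 88.3 FPKM with ANIT plus celastrol, and at 42.0, 99.2 and 473 FPKM with ANIT. For both genes ANIT plus celastrol replicate 2 was the highest of its group by a wide margin, and the remaining replicates 1 and 3 were close to each other.

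Mup3, Mup20 and Mup21 differ in sequence from the others. Mup20, known as darcin, is the male pheromone protein that attracts female mice. Its level was 816, 2247 and 382 FPKM with ANIT plus celastrol, and 936, 1229 and 3506 FPKM with ANIT. Mup3 was at 1432, 4878 and 1240.35 FPKM with ANIT plus celastrol, and at 1278, 2060.01 and 3138 FPKM with ANIT. Mup21 was at 14.7, 26.6 and 9.29 FPKM with ANIT plus celastrol, and at 12.0, 15.4 and 21.7 FPKM with ANIT. In all 3 genes ANIT plus celastrol replicate 2 and ANIT replicate 3 were the high libraries of their groups.

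Mup2 and Mup9 were the exceptions to the shared order within ANIT. Mup2 was at 582, 1661 and 504 FPKM with ANIT plus celastrol, and at 357, 673 and 578 FPKM with ANIT, so that ANIT replicate 2 was its highest ANIT library. Mup9 was near the bottom of the measured range, with 1.80 and 2.87 FPKM in ANIT plus celastrol replicates 1 and 2 and no entry in replicate 3. In the ANIT libraries Mup9 was at 4.44, 2.20 and 5.93 FPKM, with replicate 2 the lowest.

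**Figure D1:**
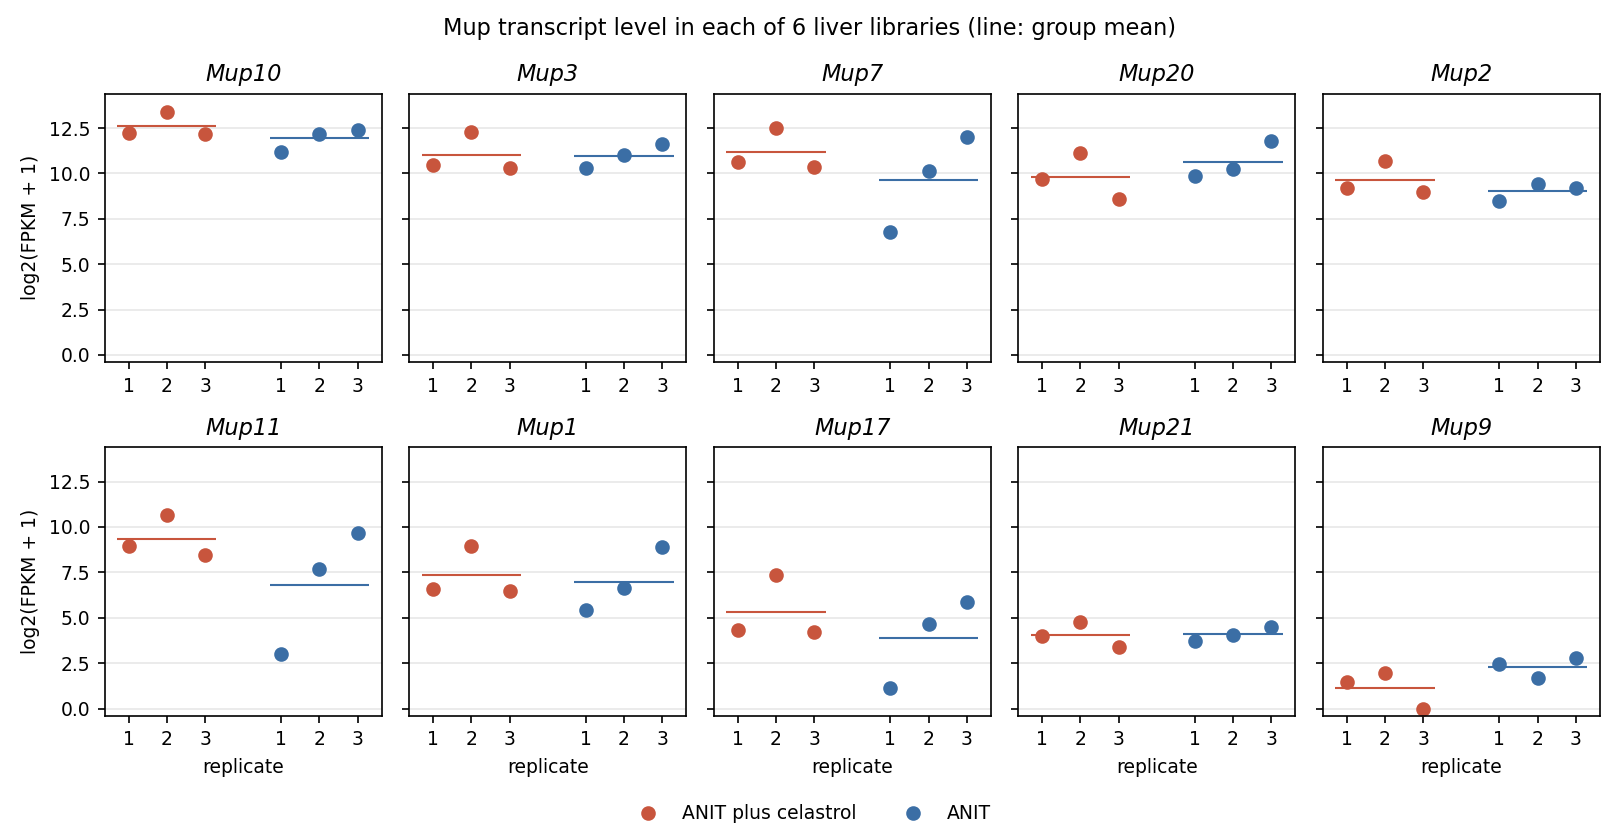
Level of each of the 10 Mup genes as log2(FPKM + 1) in the 3 ANIT plus celastrol libraries (left in each panel) and the 3 ANIT libraries (right), with points for single libraries and lines for group means. Replicate 2 is the highest ANIT plus celastrol library in 10 of 10 panels and replicate 3 is the highest ANIT library in 9 of 10, and the groups overlap in all 10.

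Ordered by mean level, the 10 genes kept nearly the same sequence in both groups. With ANIT plus celastrol the order was Mup10, Mup7, Mup3, Mup20, Mup2, Mup11, Mup1, Mup17, Mup21 and Mup9. With ANIT the order was Mup10, Mup3, Mup20, Mup7, Mup2, Mup11, Mup1, Mup17, Mup21 and Mup9. Mup10 averaged 6661 ± 3357 FPKM with ANIT plus celastrol and 4118 ± 1578 FPKM with ANIT (SD, n = 3 each). In each group the ranges of all neighbours in the order overlapped except those of Mup21 and Mup9, the last pair. Within single libraries Mup10 was above the next gene in 3 of 3 libraries of each group.

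Replicate 2 was the highest ANIT plus celastrol library for 10 of the 10 genes and replicate 3 the lowest for 10 of 10. In the ANIT group replicate 3 was the highest for 9 of 10 and replicate 1 the lowest for 9 of 10. Among all 10593 genes tested, ANIT plus celastrol replicate 2 was the highest of its group for 63.6%, ANIT replicate 3 was the highest of its group for 23.7%, and both held for 14.6%, against 9 of the 10 Mup genes. ANIT replicate 1 was the lowest of its group for 35.4% of all tested genes. Many of the 10 genes are near-identical and may share reads, and all were chosen for spread between these same libraries. Their counts are therefore not independent and are given as a description. The spread that chose the genes is summarised by the SD of log2(FPKM + 1) within a group, pooled over both groups. It ran from 0.58 for Mup21 to 2.54 for Mup11 with a median of 1.02, where the median over all tested genes was 0.16 and the 95th percentile 0.47. Among the 500 genes nearest in mean level, 96.8% to 100% had less spread than the Mup gene in question. Mup11 ranked 1st of the 10593 genes by this measure, Mup17 5th, Mup7 7th, Mup1 17th and Mup20 49th. Mup3, Mup9, Mup2, Mup10 and Mup21 ranked 102, 126, 168, 252 and 322. The membership had no stated numerical threshold: among the other Mup genes Mup15, Mup12, Mup16 and Mup14 had pooled SDs of 2.26, 2.22, 1.89 and 1.87, each above those of 7 of the 10 chosen genes, and Mup18 had 0.57, just under Mup21.

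**Figure D2:**
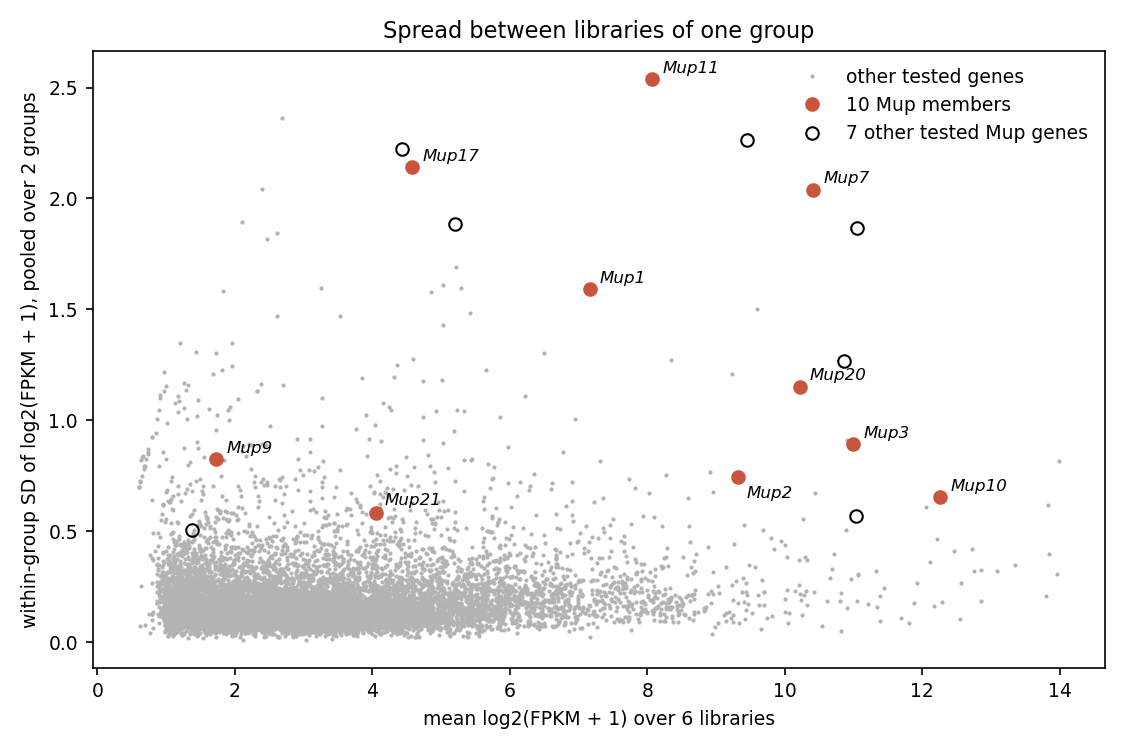
Within-group SD of log2(FPKM + 1), pooled over both groups, against the mean log2(FPKM + 1) over 6 libraries, for 10593 tested genes (grey), the 10 chosen Mup genes (red) and the 7 other tested Mup genes (open). The 10 chosen genes lie between 0.58 (Mup21) and 2.54 (Mup11), where the median gene has 0.16.

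The spread of single genes differed in size between the groups. The within-group log2 SD was 1.16 for Mup11, 1.15 for Mup7 and 1.77 for Mup17 with ANIT plus celastrol, against 3.40, 2.65 and 2.46 for the same genes with ANIT. For 6 of the 10 genes the SD was larger with ANIT plus celastrol, as for Mup2 with 0.94 against 0.48 in ANIT and for Mup3 with 1.09 against 0.65 in ANIT. The 7 genes of the near-identical group ranged from 0.65 to 2.54 in pooled SD and the 3 divergent genes from 0.58 to 1.15. Within ANIT, the highest library exceeded the lowest by 1.88-fold to 112-fold over the 7 near-identical genes, and by 1.81-fold to 3.75-fold over Mup3, Mup20 and Mup21.

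How far the near-identical genes can be told apart by reads is limited. Of all 50-base stretches in their annotated transcripts, the share found in no other Mup transcript was 0% for Mup2, 3.65% for Mup7, 5.24% for Mup1, 7.85% for Mup9, 11.0% for Mup11, 13.8% for Mup10 and 21.9% for Mup17. It was 84.4% for Mup3, 80.7% for Mup21 and 49.9% for Mup20. For read length and the handling of reads that map to several genes, no setting is given in the sources used here. Levels and differences of single genes in the near-identical group are therefore uncertain, and their part in the spread was not tested.

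**Figure D3:**
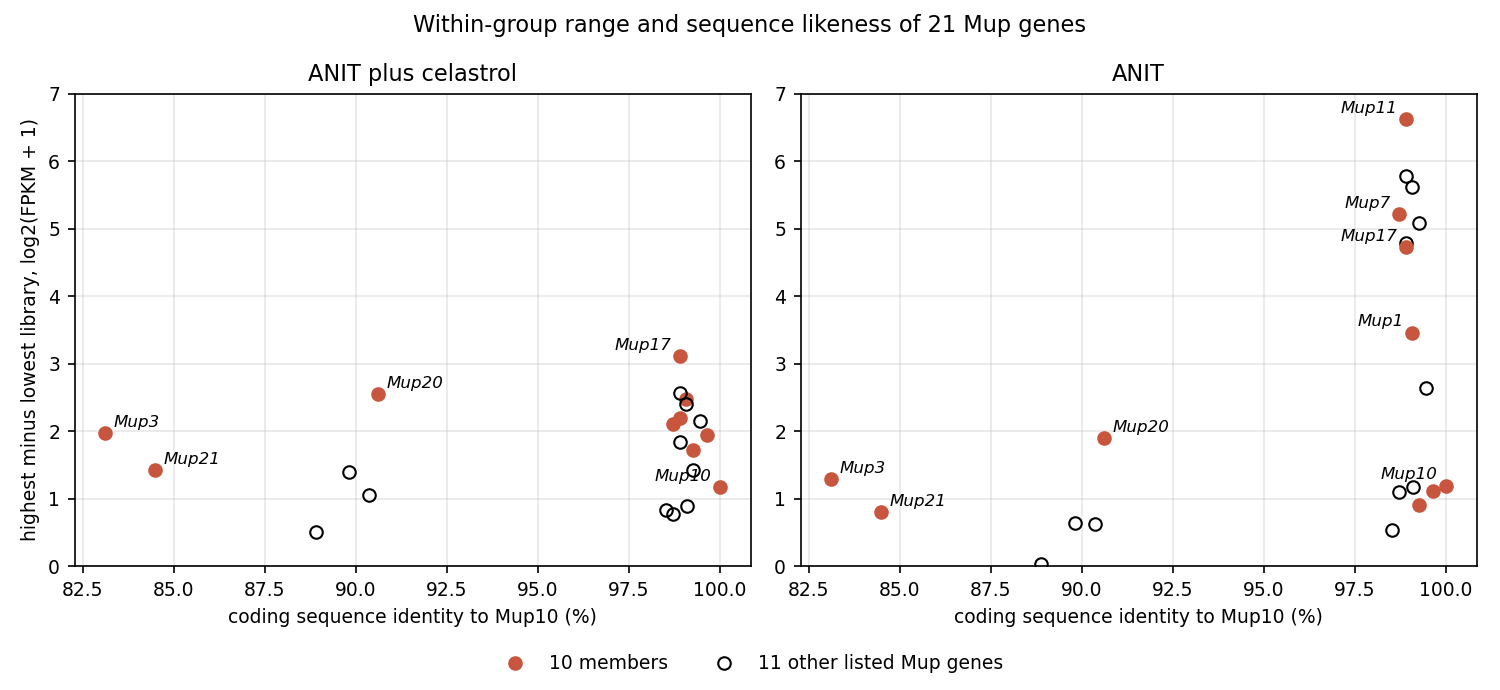
Highest minus lowest library within a group, on the log2(FPKM + 1) scale, against coding sequence identity to Mup10 in percent, for the ANIT plus celastrol group (left) and the ANIT group (right), with the 10 chosen genes in red and 11 other listed Mup genes open. In ANIT the near-identical genes span from under 1 to 6.62 (Mup11), while Mup3, Mup20 and Mup21 lie between 0.81 and 1.90.

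Sums over the family depend less than single genes on how counted reads were split among its members. They are not free of it, because FPKM divides by the length of each gene, and the annotated transcripts of Mup21 and Mup3 have 677 and 984 bases. Any reads given to the unlisted Mup22, or left out for mapping to several genes, would also be missing from the sums. The 21 Mup genes took 2.80%, 8.21% and 2.58% of the summed FPKM in ANIT plus celastrol replicates 1, 2 and 3, and 1.28%, 3.17% and 5.91% in ANIT replicates 1, 2 and 3. The groups overlapped, and the highest library exceeded the lowest 3.18-fold with ANIT plus celastrol and 4.64-fold with ANIT. The share averaged 4.53 ± 3.19% with ANIT plus celastrol and 3.45 ± 2.33% with ANIT (SD, n = 3 each). The difference of 1.07 percentage points was smaller than either SD, with a two-sided exact permutation p = 0.7, where 3 against 3 libraries allow no p below 0.1. Its sign rested on single libraries: without ANIT plus celastrol replicate 2 the difference was -0.765 points, and without ANIT replicate 1 it was -0.0154 points.

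Between ANIT plus celastrol and ANIT, 0 of the 10 Mup genes passed the test, whereas 25.0% of all 10593 tested genes did (limma on log2(FPKM + 1), Benjamini-Hochberg adjusted p under 0.05). Of all tested genes 4.41% were called higher with ANIT plus celastrol and 20.6% lower. All 10 Mup genes entered the test, 0 had an unadjusted p under 0.05, and the groups overlapped for all 10, while they did not overlap for 44.9% of all tested genes. Since the genes were chosen for a wide spread within groups, which enters the error of this test, nothing is read from the low count. Fitted log2 fold changes were positive for 7 genes and negative for 3, with a median of 0.48, against -0.17 over all tested genes. The median of the 10 genes rested on single libraries: it was -0.09 without ANIT replicate 1 and -0.17 without ANIT plus celastrol replicate 2. The 7 other Mup genes that entered the test gave 0 calls as well, and 4 further ones were below the filter of 1 FPKM in 3 libraries.

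The largest fitted difference was that of Mup11, 2.57 ± 1.73 on the log2 scale (SE, limma adjusted p = 0.319). Mup7 and Mup17 had 1.52 ± 1.39 (limma adjusted p = 0.458) and 1.43 ± 1.46 (limma adjusted p = 0.509). Mup10, with a smaller error, had 0.67 ± 0.42 (limma adjusted p = 0.278) and Mup2 had 0.60 ± 0.49 (limma adjusted p = 0.397). Mup1, Mup3 and Mup21 were close to 0 relative to their errors, at 0.35 ± 1.09, 0.02 ± 0.59 and -0.04 ± 0.38, and their sign changed with the scaling or with single libraries. Mup20 had -0.84 ± 0.78 (limma adjusted p = 0.462) and Mup9 had -1.16 ± 0.56 (limma adjusted p = 0.181). Without ANIT replicate 1, the log2 difference was 0.69 for Mup11, 0.09 for Mup7, 0.05 for Mup17 and 0.31 for Mup10, and Mup20 and Mup9, at -1.22 and -1.09, were then farthest from 0. Without ANIT plus celastrol replicate 2, Mup2 was at 0.06, Mup10 at 0.28, Mup17 at 0.41 and Mup20 at -1.51. With the 21 genes summed into a single feature, the log2 fold change was 0.56 ± 0.67 (limma adjusted p = 0.57). Errors of this size do not show that the groups were alike.

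**Figure D4:**
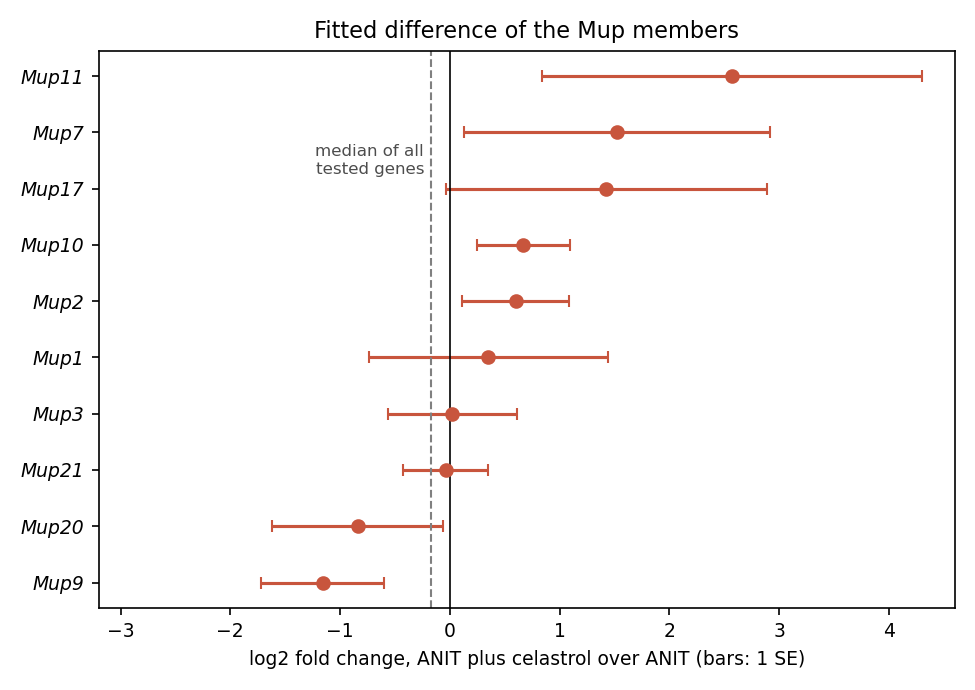
Fitted log2 fold change of ANIT plus celastrol over ANIT for the 10 Mup genes, with bars of 1 SE, and a dashed line at the median of all tested genes (-0.17). The values run from -1.16 (Mup9) to 2.57 (Mup11), and none passed the adjusted threshold.

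The makeup of the Mup pool differed between libraries as well as its size. Mup20 made up 4.85%, 4.67% and 2.54% of the summed Mup FPKM with ANIT plus celastrol, and 13.5%, 7.27% and 10.9% with ANIT. These shares did not overlap, with means of 4.02 ± 1.28% and 10.6 ± 3.15% (SD, n = 3 each) and a two-sided exact permutation p = 0.1, the smallest the design allows. Of the 10 shares examined, those of Mup20 and Mup9 did not overlap, and Mup20 was singled out after its values were seen. Without any group difference, each share would fail to overlap with a probability of 0.1. Mup20 relative to Mup10 was 0.171, 0.213 and 0.0818 with ANIT plus celastrol, and 0.399, 0.265 and 0.653 with ANIT, without overlap. This ratio reuses the same Mup20 values, so it is no separate support. The level of Mup20 itself overlapped between the groups (limma adjusted p = 0.462).

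Mup7 as a share of the pool was 9.50%, 11.9% and 8.85% with ANIT plus celastrol, and 1.58%, 6.73% and 12.7% with ANIT. Mup10 made up 28.4%, 21.9% and 31.1% with ANIT plus celastrol, and 34.0%, 27.4% and 16.6% with ANIT. ANIT replicate 1, with the smallest pool, thus had the largest Mup10 share and the smallest Mup7 share, and ANIT replicate 3 the reverse. Mup7 relative to Mup10 was 0.334, 0.545 and 0.285 with ANIT plus celastrol, and 0.0466, 0.245 and 0.765 with ANIT. Mup11 relative to Mup18, its nearest relative at 99.8% identity, was 0.260, 0.468 and 0.149 with ANIT plus celastrol, and 0.00689, 0.0881 and 0.342 with ANIT. Both ratios had their highest values in ANIT plus celastrol replicate 2 and ANIT replicate 3 of the 2 groups.

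**Figure D5:**
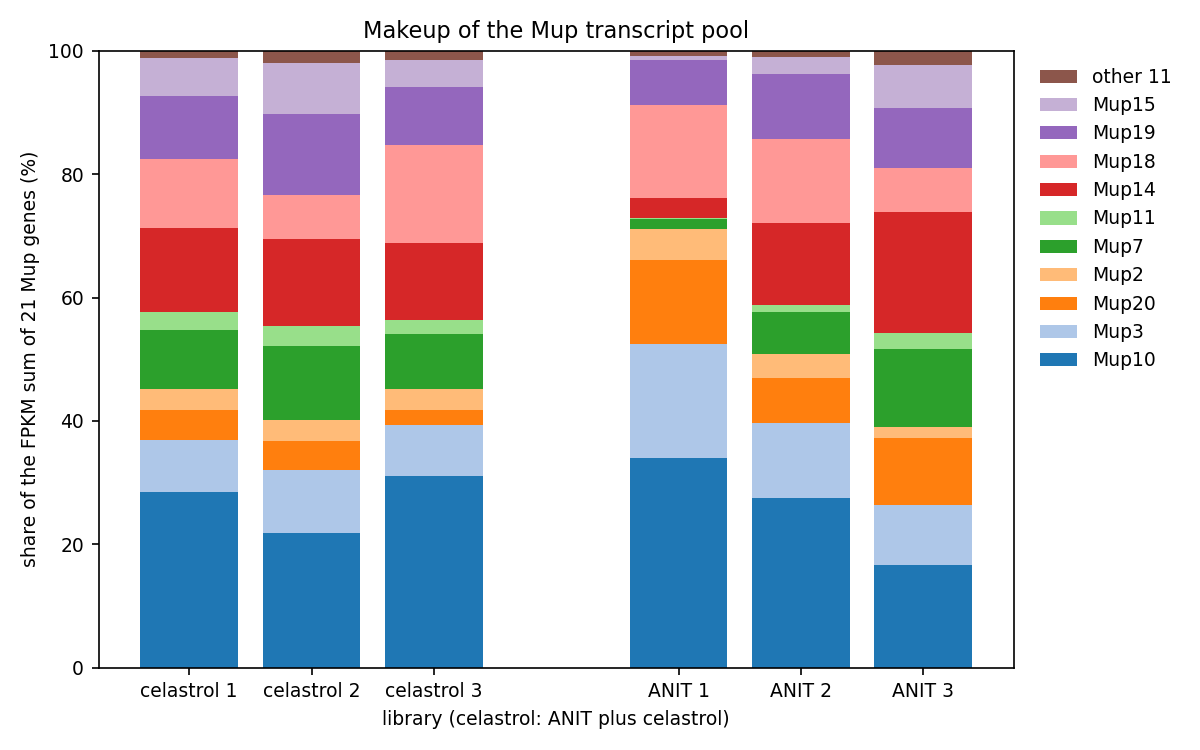
Share of each Mup gene in the summed FPKM of 21 Mup genes, in percent, for ANIT plus celastrol libraries 1 to 3 (left) and ANIT libraries 1 to 3 (right), with 11 minor genes grouped. Mup20 takes 2.54% to 4.85% with ANIT plus celastrol and 7.27% to 13.5% with ANIT, and Mup7 has its smallest share, 1.58%, in ANIT library 1.

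The 8 nearest listed genes, Hsdl2, E130308A19Rik, Inip and Snx30 on one side and Zfp37, Slc31a2, Fkbp15 and Slc31a1 on the other side of the cluster, had pooled within-group SDs of 0.06 to 0.27, against a median of 0.16 over all tested genes. Several were near or below 1 FPKM, where log2(FPKM + 1) compresses the spread. Of these 8, 6 were tested and 0 passed, against 25.0% of all tested genes. Slc31a1, the high-affinity copper importer, was at 67.9, 63.7 and 57.4 FPKM with ANIT plus celastrol and 41.5, 49.9 and 49.5 FPKM with ANIT (limma adjusted p = 0.0525), and it passed under other scalings, with a lowest adjusted p of 0.014 over the alternatives. Fkbp15 passed with median-ratio scaling and quantile normalization, with a lowest limma adjusted p of 0.0168.

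The 6 genes outside the family whose levels followed the Mup profile most closely were found by the root mean square difference of centred log2(FPKM + 1). This was taken over the 6 libraries, among 6227 genes with a mean of at least 5 FPKM. Unnamed gene models, such as Gm and Rik symbols, were left out of these 6227 and may include closer genes. Mbl2, which encodes a mannose-binding lectin made in liver, was nearest at 0.375, where the median of the 6227 genes was 0.857. Mbl2 was at 194, 431 and 166 FPKM with ANIT plus celastrol, and at 125, 256 and 292 FPKM with ANIT. It was followed by Keg1 at 0.427, the cytochrome P450 gene Cyp2c44 at 0.429, the ficolin gene Fcna at 0.447, Igfals, which encodes a partner of circulating IGF1, at 0.452 and the small heat shock protein gene Hspb1 at 0.464. The profile is the median of the 10 Mup genes, and 4 of them, Mup11 at 1.85, Mup17 at 1.19, Mup7 at 1.18 and Mup9 at 0.951, lay farther from it than the median gene did.

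Genes with a known male or female bias in adult mouse liver were examined next, because the Mup genes belong to the male-biased programme. Of 20 tested male-biased genes, 7 were higher and 2 lower with ANIT plus celastrol, where 4.41% of all tested genes were higher and 20.6% lower. Those shares depend on the scaling, and were 8.48% higher and 9.88% lower with median-ratio scaling and 8.16% and 9.11% with quantile normalization. The list's median log2 fold change was 0.94. Moxd1 and Susd4, both called higher, were under 1 FPKM in every ANIT library. They entered the test through the ANIT plus celastrol libraries alone and could not have come out lower. With no filter on low values, 8 of 22 male-biased genes were higher and 1 lower. Of all genes 2.26% were then higher and 9.18% lower. Cyp2d9, a steroid hydroxylase, was at 308, 325 and 298 FPKM with ANIT plus celastrol, and at 147, 154 and 152 FPKM with ANIT (log2 fold change 1.03 ± 0.12 SE, limma adjusted p = 0.00183). The complement gene C8b rose by 1.11 ± 0.14 (limma adjusted p = 0.0021) and the protease inhibitor gene Serpina1e by 1.86 ± 0.33 (limma adjusted p = 0.00867), while Gstp1, a glutathione transferase, had -0.96 ± 0.19 (limma adjusted p = 0.0122). Over the alternatives the list gave 3 to 8 higher and 0 to 3 lower calls, and the call of Gstp1 was lost without ANIT plus celastrol replicate 1 (limma adjusted p = 0.0561).

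Of 13 tested female-biased genes, 0 were higher and 7 lower with ANIT plus celastrol, with a median log2 fold change of -1.11, and 12 were below the filter. Of all tested genes 20.6% were lower, and 9.88% with median-ratio scaling, under which 6 of the female-biased genes were. Acot3 and Cyp2a4, both called lower, were under 1 FPKM in every ANIT plus celastrol library. They entered the test through the ANIT libraries alone and could not have come out higher. With no filter on low values, 8 of 25 female-biased genes were lower and 0 higher. Of all genes 9.18% were then lower and 2.26% higher. Acot3, a peroxisomal thioesterase, was at 0.61, 0.14 and 0.17 FPKM with ANIT plus celastrol, and at 7.16, 4.88 and 3.30 FPKM with ANIT (log2 fold change -2.20 ± 0.25 SE, limma adjusted p = 0.00192). Abcd2, a peroxisomal fatty acid transporter, had -1.70 ± 0.24 (limma adjusted p = 0.00474), the chromatin reader gene Trim24 had -0.95 ± 0.16 (limma adjusted p = 0.00621), and the organic anion transporter gene Slco1a4 had -2.70 ± 0.47 (limma adjusted p = 0.0126). Over the alternatives the list gave 0 to 1 higher and 2 to 8 lower calls, and the call of Slco1a4 was lost without ANIT replicate 1 or replicate 2 (highest limma adjusted p = 0.0543).

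In the growth hormone axis 4 of 14 tested genes were higher with ANIT plus celastrol and 0 were lower, where 4.41% of all tested genes were higher and 20.6% lower, and the median log2 fold change of the list was 0.56. Over the alternatives it gave 2 to 4 higher and 0 to 1 lower calls. Onecut1, which encodes HNF6, was at 3.96, 5.34 and 4.33 FPKM with ANIT plus celastrol, and at 1.76, 0.85 and 0.80 FPKM with ANIT (log2 fold change 1.40 ± 0.19 SE, limma adjusted p = 0.00281). Socs2, a feedback inhibitor induced by growth hormone, was at 7.81, 12.4 and 13.2 FPKM with ANIT plus celastrol, and at 5.19, 4.16 and 3.68 FPKM with ANIT (1.16 ± 0.20 SE, limma adjusted p = 0.00735). Igf1, the main endocrine product of the axis, rose by 0.65 ± 0.15 on the log2 scale (limma adjusted p = 0.0198) and the serpin gene Serpina3k by 0.88 ± 0.25 (limma adjusted p = 0.0365). Both lost their calls when single libraries were left out, with a highest limma adjusted p of 0.0849 for Igf1, without ANIT replicate 2. Serpina3k also lost its call with no filter, with the replicate number as a block and with quantile normalization. The last gave its highest limma adjusted p over the alternatives, 0.262. ANIT plus celastrol replicate 2, the high library of the Mup genes, was the highest of its group for Onecut1 and Igf1 but not for Socs2 or Serpina3k.

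Among 14 tested known regulators of Mup transcription, Onecut1 and Cebpa were higher and 0 were lower, against 4.41% and 20.6% of all tested genes. Over the alternatives the list gave 2 to 4 higher and 0 to 1 lower calls. Cebpa, which encodes a basic leucine zipper factor of mature hepatocytes, was at 127, 171 and 109 FPKM with ANIT plus celastrol, and at 70.4, 76.3 and 61.5 FPKM with ANIT (log2 fold change 0.94 ± 0.19 SE, limma adjusted p = 0.0122). Stat5b, given for its known role, was at 10.3, 11.9 and 9.80 FPKM with ANIT plus celastrol and 9.87, 11.5 and 8.46 FPKM with ANIT, without a call. The next smallest p-values were those of Bcl6, a repressor that competes with STAT5, at -0.55 ± 0.20, and Thrb, a thyroid hormone receptor gene, at 0.35 ± 0.16 (limma adjusted p = 0.0869 and 0.139). Bcl6 passed with rescaling to TPM (its lowest limma adjusted p, 0.0356) and without ANIT plus celastrol replicate 1. Thrb passed with median-ratio scaling (its lowest limma adjusted p, 0.0387), with quantile normalization and with the replicate number as a block.

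Lipocalin genes outside the Mup family were tested as well. Of 10, 3 were higher with ANIT plus celastrol and 1 was lower, against 4.41% and 20.6% of all tested genes. Over the alternatives the list gave 2 to 4 higher and 0 to 3 lower calls. The acute phase orosomucoid genes Orm2 and Orm3 rose by 2.15 ± 0.19 and 2.28 ± 0.28 (SE, limma adjusted p = 0.000789 and 0.00256). Orm1 rose by 0.85 ± 0.25 (limma adjusted p = 0.0414), a call lost under several alternatives, among them quantile normalization (limma adjusted p = 0.313). Rbp4, the retinol carrier of plasma, had -1.10 ± 0.23 (limma adjusted p = 0.0135), a call lost without ANIT replicate 2 or ANIT plus celastrol replicate 1 (highest limma adjusted p = 0.0577). How reads shared between the Orm paralogs were split is not known, so their single values are uncertain.

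Markers of the tissue and of other cells give the setting of these values. The 9 listed hepatocyte markers were abundant in every library, with summed levels of 32126 to 37374 FPKM with ANIT plus celastrol and 52554 to 64512 FPKM with ANIT. Of the 9, Alb was lower, Fgb was higher and 7 were not called. Without Alb, the other 8 summed to 24224 to 31810.2 FPKM with ANIT plus celastrol and 23022 to 28243 FPKM with ANIT. The labels give no sex. The Y-linked gene Ddx3y was at 9.30 to 12.8 FPKM with ANIT plus celastrol and 12.3 to 14.7 FPKM with ANIT, and Xist was at 0.01 to 0.02 FPKM in all 6 libraries. Of the macrophage markers, 7 of 7 were listed at above 1 FPKM in each library. For 6 of the 7 the highest libraries were ANIT plus celastrol replicate 2 and ANIT replicate 3, those of the Mup genes, as for 14.6% of all tested genes. Marco was instead lowest in ANIT plus celastrol replicate 2, at 15.25 FPKM against 49.99 and 36.23 FPKM in replicates 1 and 3. The macrophage markers summed to 206, 199 and 138 FPKM in ANIT plus celastrol replicates 1, 2 and 3, highest in replicate 1. In ANIT replicates 1, 2 and 3 they summed to 79.1, 139 and 198 FPKM. Their part in the Mup spread was not tested. In bulk tissue, fewer cells of a type and less RNA per cell cannot be told apart.

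Summed endothelial markers were at 35.8 to 63.5 FPKM with ANIT plus celastrol and 25.2 to 42.8 FPKM with ANIT, and neutrophil markers at 65.4 to 90.3 FPKM with ANIT plus celastrol and 30.9 to 54.1 FPKM with ANIT. Erythroid markers summed to 61.0, 188 and 46.0 FPKM in ANIT plus celastrol replicates 1, 2 and 3, with replicate 2 the highest as for the Mup genes. In ANIT replicates 1, 2 and 3 they summed to 214, 339 and 184 FPKM, with replicate 3 the lowest, unlike most Mup genes. Their part in the Mup spread was not tested. Lymphocyte markers summed to 0.43 to 1.48 FPKM with ANIT plus celastrol and 0.37 to 0.60 FPKM with ANIT. The estimated depth was alike in all libraries, with 19.4 to 19.8 reads per FPKM and kilobase with ANIT plus celastrol and 18.9 to 19.8 with ANIT. At that depth 3 reads on a transcript of 1 kb amount to 0.151 to 0.158 FPKM. Mup17 in ANIT replicate 1, at 1.16 FPKM, and Mup9, at up to 5.93 FPKM, rest on fewer reads than the other values. Apart from the missing Mup9 entry in ANIT plus celastrol replicate 3, they lay above that level. Reads shared with near-identical genes make them uncertain as well.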

How the data were processed

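Total RNA of frozen liver was sequenced, 1 library per sample, and groups and replicate numbers came from the library titles. Per the file headers, the authors deposited FPKM per gene symbol. Read processing was done with HISAT2, featureCounts and the mouse build mm10, per the submitters' processing notes. Neither versions nor the read length, annotation, strand setting or handling of multiply mapped reads could be read from these sources. Symbols not listed for a library were set to 0, and 2 duplicated date-like names were dropped. Of 18253 symbols, 96.3% matched GENCODE M21. Depth was estimated from the steps between low FPKM values, and intervals of depth cover counting error only.

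A gene entered the test if 3 or more libraries had 1 FPKM or more. The test was that of limma 3.58.1 (R 4.3.3) on log2(FPKM + 1) values, with trended and robust empirical Bayes moderation and no term but the group, at a Benjamini-Hochberg adjusted p under 0.05. Fold changes are on that scale, which understates changes of low genes. The fit was tested on simulated data. Coding sequences were aligned pairwise with Biopython 1.88, taking for each gene the transcript whose coding length was closest to 540 bases. Unique sequence was the share of 50-base stretches absent from all other Mup transcripts.

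The Mup genes and all gene lists were chosen with earlier results of these data known. The text names all 10 Mup genes, up to 4 genes per list with the smallest p, and the 6 genes nearest to the median Mup profile, unnamed gene models left out. Genes named beyond that, such as Stat5b, Alb and the cluster's neighbours, were chosen for their role or position. Moxd1, Susd4 and Cyp2a4 were named for how they passed the filter. Replicate numbers were not used as pairs in the main test. Deviations of same-numbered libraries correlated at 0.149, 0.231 and -0.092, which cannot show whether the samples were paired. Alternatives were another pseudocount, no filter, non-robust variance, a replicate block, other scalings, 20 abundant genes left out, and each library left out in turn. Summing 21 Mup genes into 1 feature was added after seeing the data.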

Additional observations from a re-analysis of the deposited data

How the results depend on the processing

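Of the 10 Mup genes 0 passed the test under each of the 14 alternatives, with a lowest adjusted p of 0.0688 (limma). Of 139 single-gene values under alternatives, 11 changed sign, all of Mup1, Mup3 and Mup21. Mup10 was itself among the 20 most abundant genes and has no value where these were left out. Mup21 had log2 fold changes of 0.16 with median-ratio scaling, 0.21 with quantile normalization, 0.0289 with those 20 genes removed, 0.17 without ANIT replicate 3 and 0.30 without ANIT plus celastrol replicate 3. Mup3 had -0.22 with quantile normalization, -0.10 with rescaling to TPM, -0.31 without ANIT replicate 1 and -0.60 without ANIT plus celastrol replicate 2. Mup1 had -0.43 without ANIT replicate 1 and -0.46 without ANIT plus celastrol replicate 2. With single libraries left out, log2 fold changes ran from -0.46 to 1.30 for Mup1, from -0.60 to 0.39 for Mup3 and from -0.41 to 0.30 for Mup21. The cause was not tested. The family's share of the FPKM sum differed by -0.765 to 2.30 percentage points when single libraries were left out, with -0.0154 without ANIT replicate 1, and by 2.14 with the 20 most abundant other genes out of the denominator. The median pooled SD of the 10 genes was 1.02 and ran from 0.85 to 1.38 over the alternatives.

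Among all tested genes 2652 were called, and 4189 with rescaling to TPM. With single libraries left out, fewer samples entered the fit. The calls then numbered 1117 to 1744, except without ANIT plus celastrol replicate 2. Without that library, the high library of the Mup genes, they rose to 3810 (476 higher and 3334 lower). The cause was not tested. The median log2 fold change of all genes was -0.17, and it was 0.00 with median-ratio scaling (897 higher and 1045 lower calls), 0.01 with quantile normalization (864 and 965) and -0.28 with TPM (408 and 3781), against 467 higher and 2185 lower. With those 20 genes removed it was -0.11 (559 and 1746). With the replicate number as a block 2585 genes were called, 0 of them Mup genes, and not every library correlated best with its own number. Among the other Mup genes Mup16 passed without ANIT replicate 3 (limma adjusted p = 0.0313).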

Other observations

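Apart from the Mup genes, several of the genes with the widest spread between libraries of one group were set by a single library, and they were picked after their values were seen. Car3, a carbonic anhydrase of liver, fat and muscle that is male-biased in rodent liver, was at 2.31, 147 and 1.26 FPKM in ANIT plus celastrol replicates 1, 2 and 3, and at 3.81, 2.87 and 2.45 FPKM in the ANIT libraries. The protease inhibitor gene A2m showed the opposite, with 43.7, 0.34 and 25.7 FPKM with ANIT plus celastrol, and 3.98, 0.71 and 0.53 FPKM with ANIT. Inmt, a methyltransferase gene, was at 8.94, 176 and 17.1 FPKM with ANIT plus celastrol, and at 20.6, 49.4 and 33.6 FPKM with ANIT. Cyp2c40 was at 2.24, 80.5 and 5.29 FPKM with ANIT plus celastrol, and at 1.33, 5.37 and 1.14 FPKM with ANIT. In each of these 4 genes ANIT plus celastrol replicate 2 stood apart from the other libraries of its group. Without that library A2m passed the test (limma adjusted p = 0.00708).

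Sult1e1, the estrogen sulfotransferase gene, was at 2.96, 0.49 and 25.9 FPKM with ANIT plus celastrol, and at 11.4, 0.50 and 1.16 FPKM with ANIT. Its high libraries, ANIT plus celastrol replicate 3 and ANIT replicate 1, were those in which most Mup genes were lowest.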
